A study of Homo sapiens with 4 samples.

Results

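The HOX genes of U87-MG cells, an established human glioblastoma line, were examined with and without knockdown of MAGED2. Every row of the gene tables whose symbol has the form HOX, a cluster letter A to D and a number was taken, which gave 39 of 23444 rows, the full set of human HOX genes. RNA was sequenced from 4 libraries. The 2 libraries called shMAGED2 carried a hairpin against MAGED2, and the 2 called shCON a scrambled negative control hairpin. All 4 come from the same U87-MG line with no other allele or drug named. The design text describes the knockdown as stable, but the protocol speaks of transient transfection, a harvest at 36 h and hairpins against ZDHHC15, and the labels do not settle the conflict. Whether replicates were separate cultures is not said either, so p-values reflect only the spread between these libraries, possibly a technical one.

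HOX genes encode homeodomain transcription factors that give cells their position along the head-to-tail axis of the embryo. They lie in clusters in which the order of genes along the chromosome matches the order of their expression along the body, and genes at the same place in different clusters (paralogues) carry the same number. Low numbers belong to the hindbrain and neck end and high numbers to the trunk, limb buds and genital end. The forebrain forms without HOX expression, and HOX genes, among them HOXA9 and HOXA10, are known to be expressed again in part of human glioblastomas. HOX proteins bind DNA together with the TALE homeodomain proteins of the PBX, MEIS and PKNOX families. Polycomb complexes keep HOX clusters silent, and the MLL family of histone methyltransferases keeps them active.

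The libraries held 31160205 and 36234336 counts in shMAGED2 and 34235565 and 28673774 counts in shCON. MAGED2 itself had 526 and 795 counts in shMAGED2 against 6090 and 5225 in shCON, with 11.2% of the control level left. Of 10 glial markers, 3 were tested, 0 rose and 1 fell. Among all genes tested 12.3% rose and 11.6% fell, and the marker counts in this paragraph are to be read beside them. OLIG2 fell (log2 change −1.45), a call that ended without shCON replicate 1 and without shCON replicate 2 (adjusted p = 0.0674 and 0.0936 by edgeR). SLC1A3, the highest of these markers per gene length, had 876 and 1013 counts in shMAGED2 against 867 and 775 in shCON (log2 change 0.16, not called). GFAP had 28 and 51 counts in shMAGED2 against 79 and 89 in shCON (log2 change −1.17, edgeR adjusted p = 0.0784, not called). PDGFRA had 15 and 9 counts in shMAGED2 against 5 and 0 in shCON, S100B had 0 and 3 in shMAGED2 against 14 and 3 in shCON, and SOX2 had at most 4. AQP4, OLIG1, SOX10 and ALDH1L1 had 0 counts in every library. The part of these markers in the HOX results was not tested. The FPKM (fragments scaled by the length of the gene and the size of the library) of 8 mesenchymal glioblastoma markers summed to between 4789 and 5260 in shMAGED2 and between 5073 and 5293 in shCON. Of these 8, 0 rose and 3 fell, beside 12.3% of all genes that rose and 11.6% that fell. COL1A1, COL1A2 and CHI3L1 fell by 1.54, 0.91 and 0.45 on the log2 scale. The COL1A2 and CHI3L1 calls ended without shCON replicate 1, without shCON replicate 2 and in all 3 limma fits to FPKM, and COL1A1 passed in each of these. TNC and CD44 were higher in both shMAGED2 libraries than in either shCON library (log2 changes 0.35 and 0.35, edgeR adjusted p = 0.0564 and 0.0831, not called), and 2 markers of the list rose in DESeq2 and in the fit with no filter on low counts. The FPKM of 10 glial markers summed to 7.59 to 7.81 in shMAGED2 and 9.41 to 9.503 in shCON. Of these 10, 2 fell in both limma fits to filtered FPKM. For 8 leukocyte and endothelial markers the sum was 0.435 to 0.972 in shMAGED2 and 0.450 to 0.808 in shCON. Of these 8, 4 were tested, 0 rose and 0 fell, and AIF1 had 0 counts. VWF had 11 and 10 counts in shMAGED2 against 33 and 67 in shCON (log2 change −2.31, edgeR adjusted p = 0.0516). PECAM1 had 64 and 32 in shMAGED2 against 20 and 0 in shCON (log2 change 2.34, not called). In DESeq2 and in the fit with no filter on low counts, 1 of the 8 fell.

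HOX transcripts were a small part of the RNA. All 39 genes together had 3765 and 3985 counts in shMAGED2 and 4543 and 3933 in shCON. Counted as expressed at a mean of at least 1 FPKM in a group, 15 of the 39 genes were expressed, 18 more had at least 1 count in some library, and 6 had none. The expressed genes were spread over all 4 clusters, with 4 of 11 in HOXA (chromosome 7), 4 of 10 in HOXB (chromosome 17), 3 of 9 in HOXC (chromosome 12) and 4 of 9 in HOXD (chromosome 2). By position they were not even: 4 of 8 genes of paralogue groups 1 to 3 and 9 of 15 of groups 4 to 8 were expressed, against 2 of 16 of groups 9 to 13, which were HOXD9 and HOXD13.

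**Figure D1:**
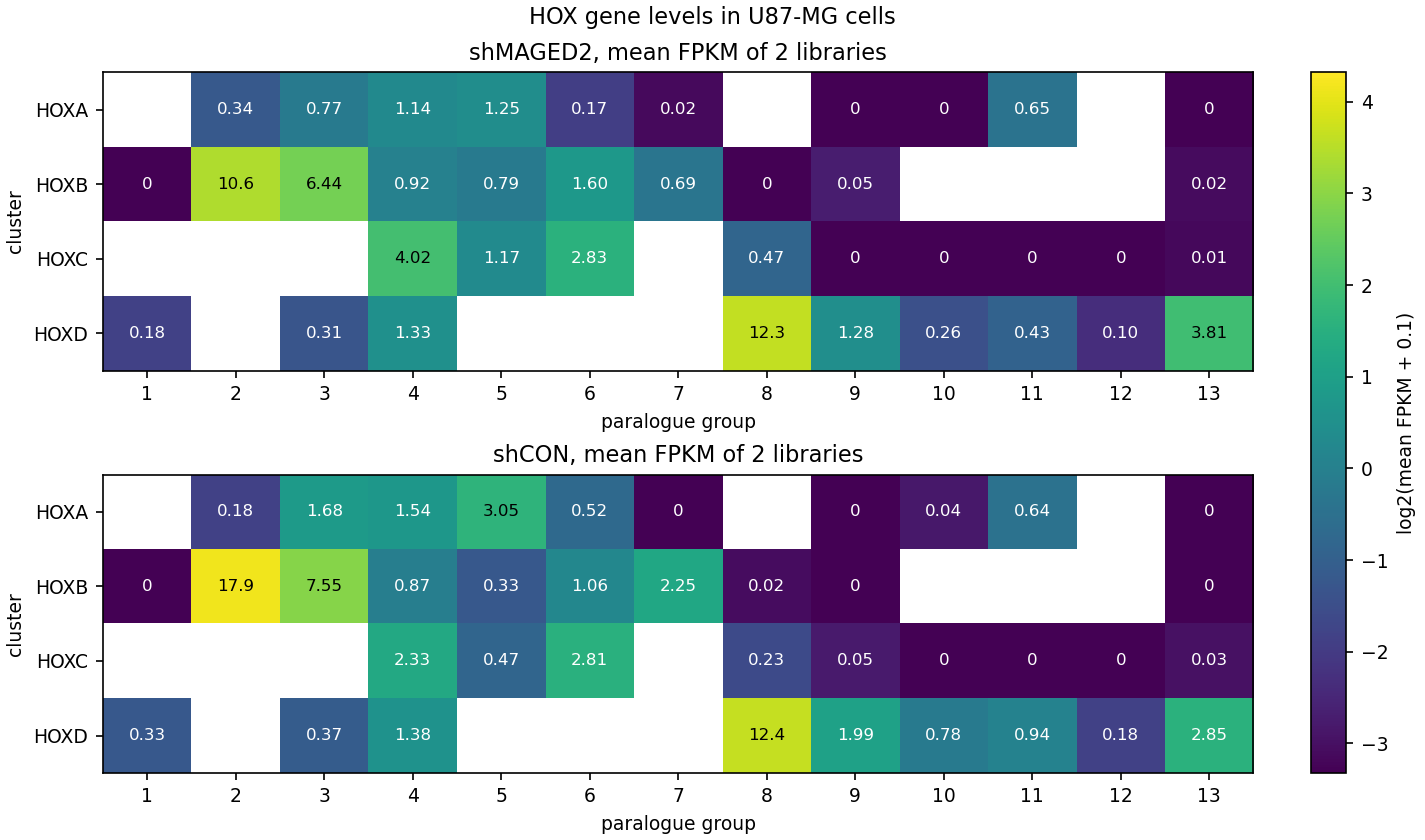
Mean FPKM of 2 libraries for each HOX gene, in shMAGED2 (upper grid) and shCON (lower grid), with clusters as rows and paralogue groups 1 to 13 as columns. Colour is log2(mean FPKM + 0.1), the printed number is the mean FPKM, and white cells have no gene or none reported here. HOXB2, HOXB3 and HOXD8 stand out in both grids, and most cells from group 9 on are near 0, apart from the HOXD row.

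The genes HOXB2, HOXD8 and HOXB3 held most of the HOX signal outside shMAGED2 replicate 1: 47.1% and 56.6% of the summed HOX FPKM in shMAGED2 and 55.7% and 57.2% in shCON. HOXB2, which patterns the hindbrain, had 8.56 and 12.6 FPKM in shMAGED2 against 17.4 and 18.3 in shCON. HOXD8 had 13.1 and 11.4 FPKM in shMAGED2 against 12.1 and 12.7 in shCON, and HOXB3, a neighbour of HOXB2 in the cluster and likewise a hindbrain gene, had 6.15 and 6.74 FPKM in shMAGED2 against 7.03 and 8.08 in shCON. HOXB2 was thus the highest HOX gene in shCON, and in shMAGED2 it lay under HOXD8 in replicate 1 and above it in replicate 2. HOXD13, the last gene of its cluster and best known for shaping the digits, came next by its mean over the 4 libraries, with 3.57 and 4.04 FPKM in shMAGED2 against 3.08 and 2.62 in shCON. Its neighbours were lower: HOXD12 had 0.0755 and 0.124 FPKM in shMAGED2 against 0.143 and 0.219 in shCON. The order of levels along HOXD therefore ran high at HOXD8, low from HOXD10 to HOXD12 and high again at HOXD13, in both groups.

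Summed over a cluster, HOXB gave 19.4 and 22.8 FPKM in shMAGED2 against 28.7 and 31.2 in shCON, and HOXD gave 20.2 and 19.7 in shMAGED2 against 21.1 and 21.3 in shCON. HOXA summed to 8.61 and 5.75 FPKM in shMAGED2 against 9.39 and 10.4 in shCON. HOXC summed to 10.8 and 6.14 FPKM in shMAGED2 against 6.39 and 5.43 in shCON. The HOXA, HOXB and HOXD sums were lower in both shMAGED2 libraries than in either shCON library, while the HOXC sum overlapped between the groups. These sums follow their highest members, and they carry no test. With RNA from whole cultures, fewer cells that express a gene and less RNA in each cell cannot be told apart.

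Promoter windows of RefSeq (GRCh38.p14, from 250 bases before to 50 bases after the start of transcription) matched 20 of the 39 members. The windows of HOXD8, HOXD13 and HOXC4 are shown because these were the highest members with a window and a single start, and that of HOXA9 because it is a leukaemia and glioma gene with 0 counts here. Capitals mark the TATA box (TATAAA), the GC box (GGGCGG), the CCAAT box (CCAAT) and a PBX-HOX site (TGATTNAT), each searched on both strands. The HOXC4 window is also the one listed for HOXC5.
HOXD8, plus strand, chr2:176129455-176129754: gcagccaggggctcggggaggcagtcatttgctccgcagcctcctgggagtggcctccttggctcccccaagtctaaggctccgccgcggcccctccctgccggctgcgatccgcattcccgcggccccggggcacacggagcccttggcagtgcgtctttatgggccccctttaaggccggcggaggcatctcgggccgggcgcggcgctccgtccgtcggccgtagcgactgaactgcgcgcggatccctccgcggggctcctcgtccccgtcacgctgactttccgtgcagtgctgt
HOXD13, plus strand, chr2:176092471-176092770: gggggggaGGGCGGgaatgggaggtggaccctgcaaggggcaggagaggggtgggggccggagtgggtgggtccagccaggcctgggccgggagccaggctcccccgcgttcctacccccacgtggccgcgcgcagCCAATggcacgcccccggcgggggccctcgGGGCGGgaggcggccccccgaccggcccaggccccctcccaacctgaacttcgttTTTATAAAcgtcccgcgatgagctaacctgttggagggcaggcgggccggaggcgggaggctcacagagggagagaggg
HOXC4 and HOXC5, plus strand, chr12:54016638-54016937: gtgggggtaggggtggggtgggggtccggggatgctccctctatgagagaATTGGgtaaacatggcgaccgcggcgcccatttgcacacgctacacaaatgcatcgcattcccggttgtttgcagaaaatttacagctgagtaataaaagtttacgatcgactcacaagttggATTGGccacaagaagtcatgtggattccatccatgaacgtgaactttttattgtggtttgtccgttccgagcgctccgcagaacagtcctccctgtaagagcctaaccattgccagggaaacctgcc
HOXA9, minus strand, chr7:27165488-27165787: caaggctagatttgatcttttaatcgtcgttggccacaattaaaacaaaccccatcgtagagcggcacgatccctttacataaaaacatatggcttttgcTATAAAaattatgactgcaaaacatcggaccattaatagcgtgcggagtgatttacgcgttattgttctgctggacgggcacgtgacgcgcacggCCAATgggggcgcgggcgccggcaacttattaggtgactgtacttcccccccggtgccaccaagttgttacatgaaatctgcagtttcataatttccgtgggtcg
HOXD8 held none of these motifs and had 34 CpG dinucleotides and 71.7% G and C. HOXD13 held 2 GC boxes, 1 CCAAT box and 2 TATA matches that read opposite strands of the same stretch, with 24 CpG. HOXC4 held 2 CCAAT boxes and 15 CpG, and the silent HOXA9 held 1 TATA box, 1 CCAAT box and 22 CpG. Of 34943 distinct windows in the whole table, 11.6% held a TATA box, 44.9% a GC box, 34.6% a CCAAT box and 2.82% a PBX-HOX site, and the median window had 14 CpG. These matches describe letters in a window and were not tested against expression.

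Setting shMAGED2 against shCON addresses which HOX genes differ when MAGED2 is depleted. HOXA5, HOXB2 and HOXB7 were lower in shMAGED2, no member was called higher, and the other tested members did not pass the threshold, an adjusted p of 0.05 over all 15293 genes tested. The test covered 24 of the 39 members. The other 15 were too low to be tested: 6 had 0 counts throughout and 9 had few. Of the 24, 3 were called (0 rose and 3 fell), against 23.9% called among all genes tested, of which 12.3% rose and 11.6% fell. The 3 that fell are close to the share of all genes that fell, so the count is not a result about HOX genes. The median log2 change of the 24 was −0.02, beside 0 for all genes tested.

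HOXA5 (ENSG00000106004, chromosome 7, 27141052 to 27143668 in hg38, minus strand, a gene of the central group that in the mouse shapes the lung and the neck vertebrae) had 60 and 87 counts in shMAGED2 against 189 and 144 in shCON. Scaled to the library (CPM, counts relative to the TMM-scaled library total), this was 2.04 and 2.37 in shMAGED2 against 5.42 and 4.91 in shCON, and the groups did not overlap. HOXA5 fell by 1.23 on the log2 scale (SE 0.26, 95% interval −1.87 to −0.58; quasi-likelihood test of edgeR, adjusted p = 0.0236 after Benjamini-Hochberg), which leaves 42.8% of the control level. Its exons overlap no other annotated gene on either strand.

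HOXB7 (ENSG00000260027, chromosome 17, 48607227 to 48633572, minus strand, a gene reported to drive FGF2 in melanoma) had 30 and 38 counts in shMAGED2 against 89 and 110 in shCON. In CPM these were 1.02 and 1.04 in shMAGED2 and 2.55 and 3.75 in shCON. The shMAGED2 libraries were nearly equal and both below shCON. HOXB7 fell by 1.61 (SE 0.37, 95% interval −2.51 to −0.71; edgeR, Benjamini-Hochberg adjusted p = 0.0279), to 32.7% of the control level. The call ended in the limma fit to log2(FPKM + 1) with no filter on low values (adjusted p = 0.0622), where its change was −0.93.

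HOXB2 (ENSG00000173917, chromosome 17, 48540894 to 48544989, minus strand) had 432 and 743 counts in shMAGED2 against 964 and 857 in shCON, or 14.7 and 20.2 CPM in shMAGED2 against 27.6 and 29.2 in shCON. Both shMAGED2 libraries were below both shCON libraries, and they differed from each other 1.38-fold. HOXB2 fell by 0.70 (SE 0.18, 95% interval −1.15 to −0.25; edgeR, Benjamini-Hochberg adjusted p = 0.0419), to 61.5% of the control level. Its call lay near the threshold: it ended with library size alone as the scaling (adjusted p = 0.0526) and in each of 3 limma fits to log2(FPKM + 0.1) or log2(FPKM + 1) values (adjusted p = 0.0674 to 0.118). In those 3 fits its change was −0.72 to −0.77.

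The calls of HOXA5, HOXB2 and HOXB7 did not stand without a control library. Without shCON replicate 1 none of the 24 members passed, where 6.96% of all genes did, and without shCON replicate 2 again none passed, where 7.97% of all genes did. Their changes without shCON replicate 1 were −1.16, −0.75 and −1.87 for HOXA5, HOXB2 and HOXB7, and −1.29, −0.66 and −1.31 without shCON replicate 2. Without shMAGED2 replicate 1, HOXA5, HOXB2, HOXB7, HOXA3 and HOXA6 passed, 5 members that all fell, with 41.1% of all genes called. Without shMAGED2 replicate 2, 8 members passed, with 47% of all genes called: HOXA5, HOXB2 and HOXB7 fell, and HOXB5, HOXB6, HOXC4 and HOXC5 were among the 5 that rose. In each such fit the library left alone in its group is assumed to vary like those of the other group.

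**Figure D2:**
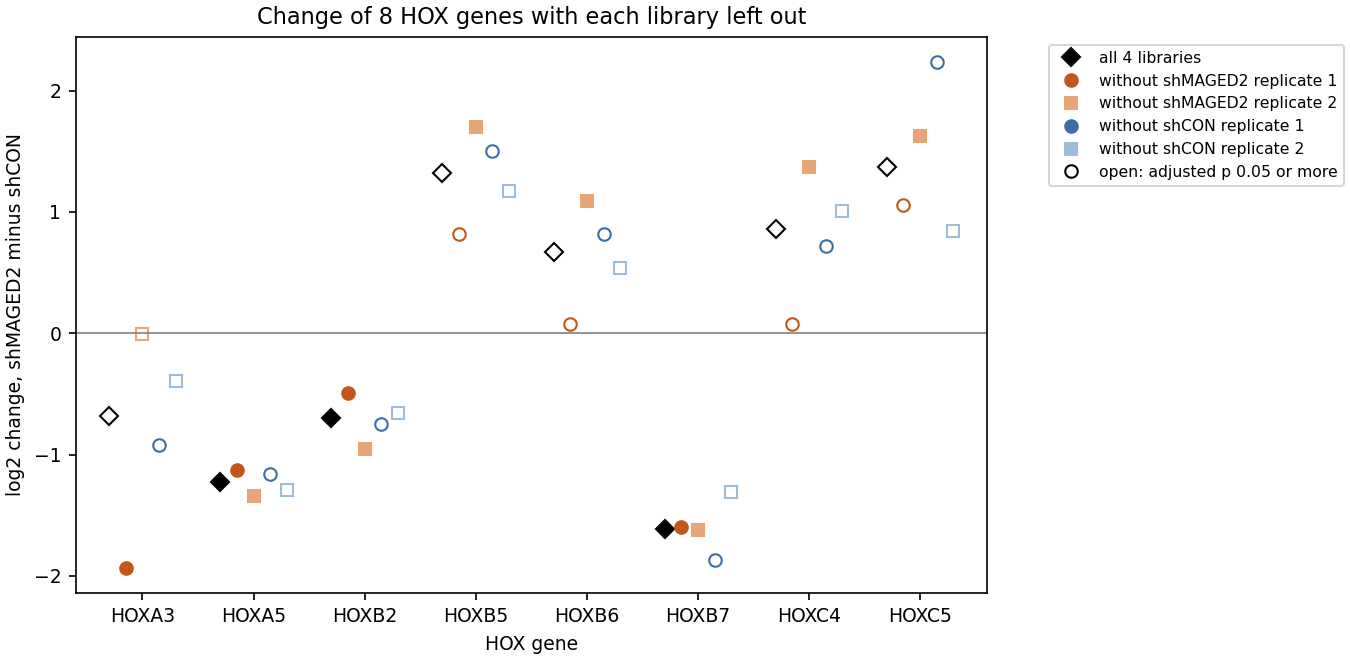
Log2 change, shMAGED2 minus shCON, of 8 HOX genes with all 4 libraries (black diamonds) and with each library left out in turn. Filled symbols passed an adjusted p of 0.05 and open ones did not; the genes shown passed it in at least 1 of these fits, and HOXA6, with 0 counts in shMAGED2 replicate 2, is left out. HOXA5, HOXB2 and HOXB7 lie below 0 in every fit, and HOXB6 and HOXC4 drop to near 0 without shMAGED2 replicate 1.

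In paralogue groups 1 to 3, values other than those of HOXB2 did not pass; adjusted p-values here and in the next paragraphs come from the same edgeR test with Benjamini-Hochberg adjustment. HOXA3, needed in the mouse for the thymus and parathyroid glands, had 1.23 and 0.302 FPKM in shMAGED2 against 1.17 and 2.19 in shCON. It was low in shMAGED2 replicate 2 alone: its change was −0.68 with all libraries (SE 0.61, interval −2.17 to 0.81, adjusted p = 0.461), −1.93 without shMAGED2 replicate 1 and −0.01 without shMAGED2 replicate 2. HOXB3, whose FPKM are given above, had a change of −0.27 (SE 0.13, adjusted p = 0.188), and its interval of −0.60 to 0.05 was the narrowest of the 24. HOXA2 and HOXD1 had at most 26 counts in a library, with changes of 1.03 (interval −0.66 to 2.73) and −0.78 (interval −2.29 to 0.72).

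In the central groups 4 to 8 the tested HOXC genes, 4 of 4, had positive values and none passed. HOXC4 had 5.599 and 2.44 FPKM in shMAGED2 against 2.10 and 2.57 in shCON, high in shMAGED2 replicate 1 only (log2 change 0.86, SE 0.44, interval −0.21 to 1.93, adjusted p = 0.207). HOXC5 had 1.36 and 0.980 FPKM in shMAGED2 against 0.673 and 0.258 in shCON, without overlap (log2 change 1.37, SE 0.56, interval 0.01 to 2.73, adjusted p = 0.131). HOXC6 had 3.26 and 2.40 FPKM in shMAGED2 against 3.29 and 2.32 in shCON, with replicate 1 above replicate 2 in both groups (log2 change 0.16, SE 0.24, interval −0.43 to 0.75, adjusted p = 0.671). HOXC8 had 39 and 22 counts in shMAGED2 against 16 and 13 in shCON, a change of 1.08 (interval −0.50 to 2.65). Of the exon bases of HOXC4 and HOXC6, 17.8% and 15.7% also belong to another gene on the same strand, and each is a partner of the other. Of those of HOXC5, 59.9% are shared, with AC012531.2 and a second annotated gene named HOXC5 rather than with HOXC4 or HOXC6. For 33.9% of the HOXC5 bases, a gene sharing them has a row. The assignment of reads to these genes is therefore uncertain.

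HOXB3, HOXB4, HOXB5 and HOXB6 lie between HOXB2 and HOXB7, and none of them passed. HOXB5 had 67 and 45 counts in shMAGED2 against 27 and 18 in shCON, above in both libraries (log2 change 1.32, interval 0.08 to 2.57, adjusted p = 0.114). HOXB6 had 2.09 and 1.11 FPKM in shMAGED2 against 1.16 and 0.953 in shCON, with shMAGED2 replicate 1 high (log2 change 0.67, SE 0.41, interval −0.35 to 1.68, adjusted p = 0.294). HOXB4, known for expanding blood stem cells, had 108 and 135 counts in shMAGED2 against 126 and 90 in shCON (log2 change 0.14, interval −0.50 to 0.78).

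The neighbours of HOXA5 had low counts and did not pass. HOXA4 had 1.46 and 0.811 FPKM in shMAGED2 against 1.69 and 1.39 in shCON (log2 change −0.49, SE 0.37, interval −1.38 to 0.41, adjusted p = 0.38). HOXA6 had 11 and 0 counts in shMAGED2 against 16 and 18 in shCON. HOXD8, with the FPKM given above, had a change of −0.04 (SE 0.17, interval −0.45 to 0.37, adjusted p = 0.884). HOXD4 had 1.35 and 1.31 FPKM in shMAGED2 against 1.30 and 1.46 in shCON, a change of 0.00 (SE 0.32, interval −0.79 to 0.79, adjusted p = 0.999), whose sign turned under several settings. These were the changes nearest to 0.

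Within paralogue group 5, HOXA5 fell, while HOXB5 and HOXC5 had positive values that did not pass. In FPKM, HOXA5 had 1.11 and 1.39 in shMAGED2 against 3.20 and 2.90 in shCON, HOXB5 1.013 and 0.574 in shMAGED2 against 0.362 and 0.290 in shCON, and HOXC5 the values given above. Their sum was 3.48 and 2.94 FPKM in shMAGED2 against 4.24 and 3.45 in shCON, and it overlapped between the groups. HOXA5 was the highest of the group in both shCON libraries, and in shMAGED2 the 3 genes lay within 0.574 to 1.39 FPKM.

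**Figure D3:**
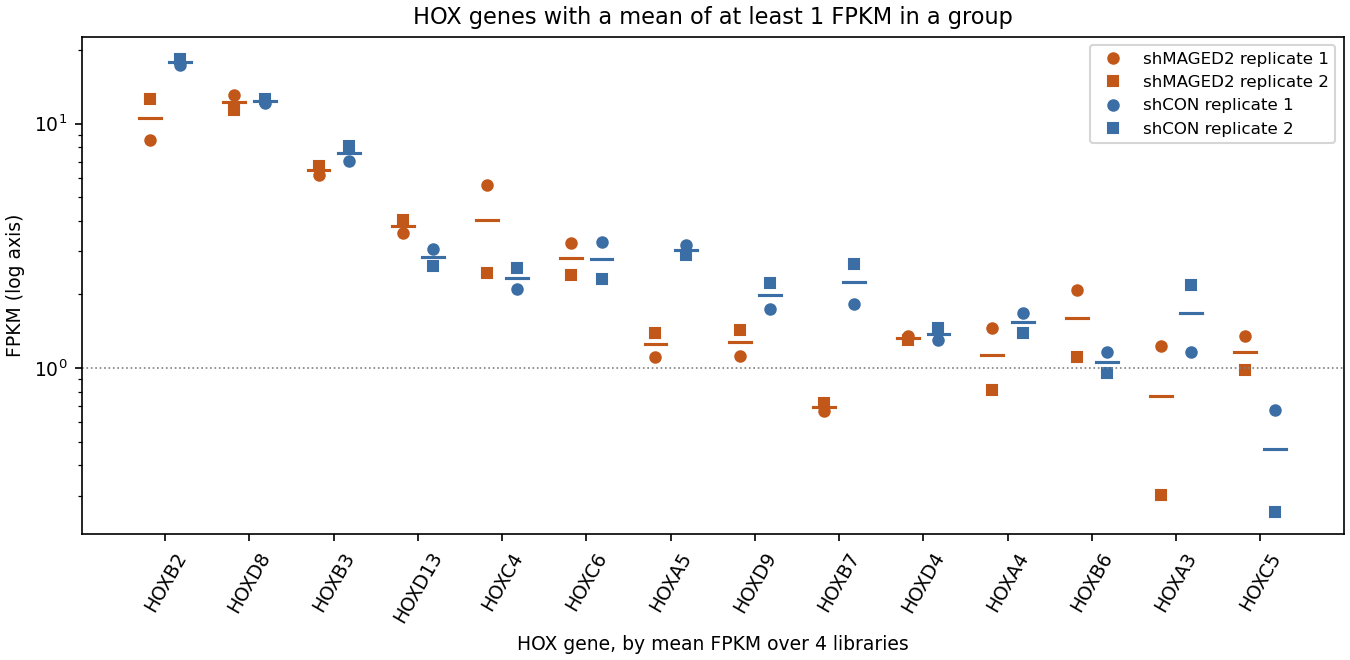
FPKM on a log axis of HOX genes with a mean of at least 1 FPKM in a group, ordered by their mean over 4 libraries. Points are libraries (circle for replicate 1, square for replicate 2), short lines are means, shMAGED2 stands left of shCON, and the dotted line marks 1 FPKM. HOXA5 and HOXB7 show separate groups, as do HOXB2, HOXB3, HOXC5, HOXD9 and HOXD13, while the shMAGED2 points of HOXC4 and HOXA3 lie far apart.

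Posterior genes were low apart from HOXD9 and HOXD13, and none of the 5 tested passed. HOXD13 was above shCON in both shMAGED2 libraries (log2 change 0.47, SE 0.20, interval −0.01 to 0.96, adjusted p = 0.14). HOXD9, HOXD10 and HOXD11 lay lower in both shMAGED2 libraries than in either shCON library. HOXD10 had 17 and 21 counts in shMAGED2 against 65 and 39 in shCON (log2 change −1.47, interval −2.63 to −0.31, adjusted p = 0.0723). HOXD11 had 19 and 29 counts in shMAGED2 against 60 and 37 in shCON (change −1.05), and HOXD9 had 1.12 and 1.43 FPKM in shMAGED2 against 1.75 and 2.23 in shCON (change −0.59, SE 0.29, interval −1.30 to 0.13, adjusted p = 0.199). HOXD10 and HOXD11 share 16.8% and 21.4% of their exon bases with each other, and how such reads were counted is not known. HOXA11 had 31 and 78 counts in shMAGED2 against 52 and 45 in shCON, with shCON between the shMAGED2 libraries.

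**Figure D4:**
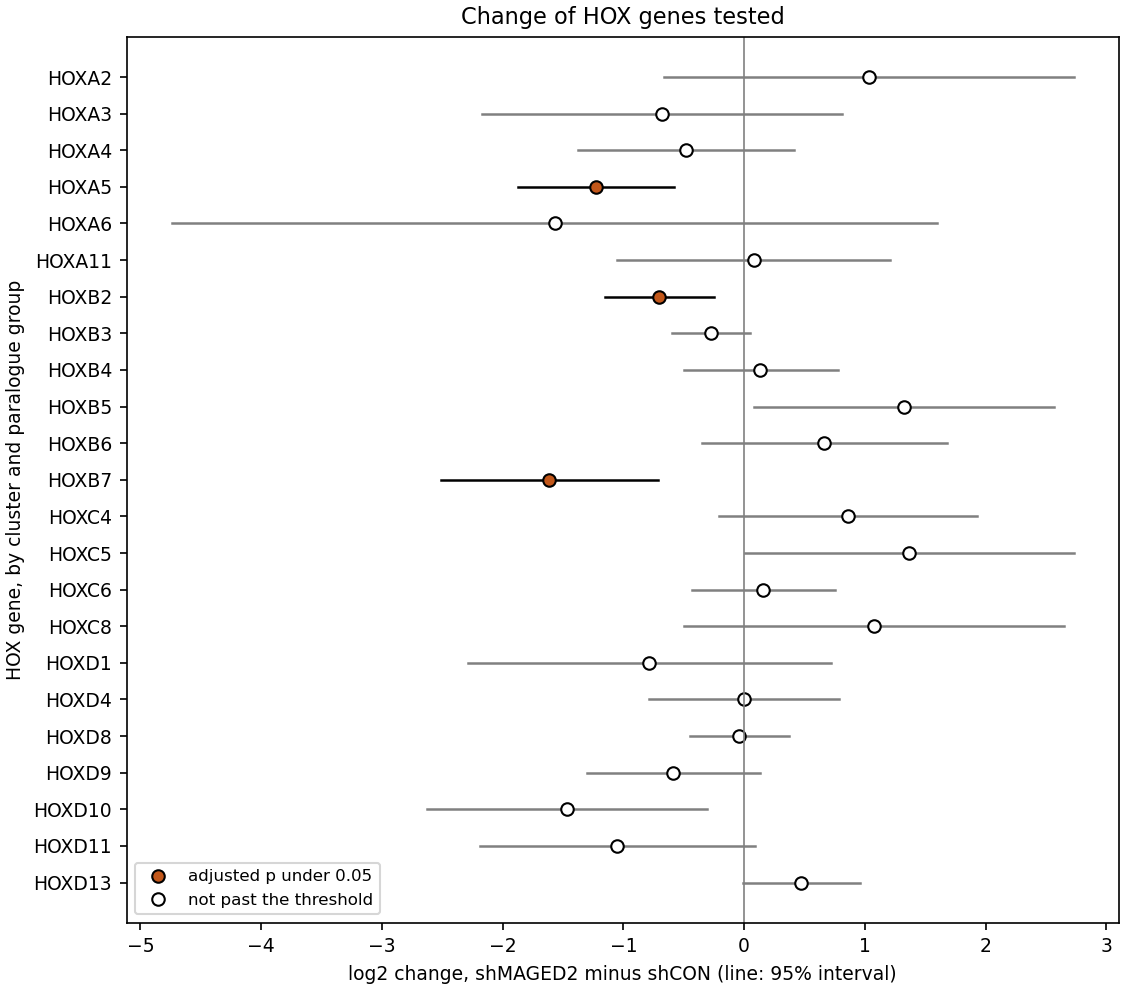
Log2 change, shMAGED2 minus shCON, of the HOX genes tested and reported here, from the top by cluster and paralogue group. Lines are 95% intervals of the edgeR quasi-likelihood fit and filled points passed an adjusted p of 0.05. HOXA5, HOXB2 and HOXB7 passed, each below 0, and the open points fall on both sides.

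The 9 members detected but not tested had at most 9 counts in a library. HOXB9 had 2 and 8 counts in shMAGED2 and 0 in both shCON libraries, HOXA10 had 0 in both shMAGED2 libraries and 5 and 3 in shCON, and HOXC9 had 0 in shMAGED2 and 5 and 0 in shCON. HOXD12 had 4 and 7 counts in shMAGED2 against 7 and 9 in shCON, and HOXD3 had 3 and 7 in shMAGED2 against 9 and 4 in shCON. HOXA7, HOXB8, HOXB13, the prostate gene, and HOXC13, the hair gene, had at most 5 counts each. HOXA9, HOXA13, HOXB1, HOXC10, HOXC11 and HOXC12 had 0 counts in all 4 libraries, which allows up to 0.0963 and 0.0828 CPM in shMAGED2 and 0.0876 and 0.105 CPM in shCON (3 counts over the library total without TMM scaling, counting error only). A change of these genes was not detectable at this depth.

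The HOX members were counted on fewer reads than most genes. The median tested member had a mean of 80.2 counts in a library, beside 758.8 for all genes tested, and 20.1% of tested genes had fewer than the median member. The median standard error of the log2 change was 0.39 for the members and 0.17 for all genes. Groups did not overlap for 16 of the 24 members, 6 higher and 10 lower in shMAGED2, against 66% of all genes tested (33% higher and 33% lower). By the unadjusted p, 6 of the 24 were under 0.05, against 38% of all genes. The shMAGED2 libraries differed from each other over the HOX genes more than the shCON libraries did, with a chi-square per degree of freedom of 10.15 over 30 members in shMAGED2 and 2.64 over 30 members in shCON. For shMAGED2 replicate 2 against shCON replicates 1 and 2 the HOX values were 7.71 and 10.51, and for shMAGED2 replicate 1 they were 17.49 and 17.69. Over HOX genes the shMAGED2 libraries thus differed from each other about as much as replicate 2 differed from shCON. Over all genes the shMAGED2 libraries again differed more, with 79.59 between them and 7 between the shCON libraries. There the values between groups were higher still, at 121.94 to 197.82.

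Several HOX genes share sequence with annotated partners. In GENCODE 29, 18 of the 39 members share exon bases with another gene on the same strand and 19 lie partly opposite a gene on the other strand. No source used here states whether counting used strand. HOXD4 and HOXD3 share 80.5% and 62.2% of their exon bases with AC009336.2, which has its own row with 54 and 64 counts in shMAGED2 against 61 and 48 in shCON. HOXA7, HOXD1 and HOXA6 lie opposite antisense genes over 62.5%, 58.1% and 39.3% of their exon bases. HOXB7, like HOXA5, has no exon base shared with another gene, and HOXB2 lies opposite HOXB-AS1 over 3.7%. The length implied by counts and FPKM together was steady between libraries, with a median ratio of the highest to the lowest of 1.02 over 22 members. HOXA3 was the exception past 1.5, at 3.10 and 3.56 kb in shMAGED2 against 2.90 and 2.25 kb in shCON, so its FPKM and count changes differ.

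Among the partners that HOX proteins bind DNA with, PBX3 rose and others moved both ways. Of 9 TALE cofactors, 7 were tested, of which 2 rose and 2 fell, with a median log2 change of 0.34, beside 12.3% of all genes that rose and 11.6% that fell. PBX3 had 64.7 and 54.5 FPKM in shMAGED2 against 21.3 and 19.96 in shCON. It rose by 1.60 on the log2 scale (SE 0.14, edgeR, Benjamini-Hochberg adjusted p = 0.00153) and passed with each library left out. It was higher than any HOX gene in every library, while PBX2 was not called. PBX2 had 14.1 and 13.1 FPKM in shMAGED2 against 13.8 and 11.3 in shCON. MEIS2 rose (0.51, adjusted p = 0.0248), and MEIS3 (−0.53, adjusted p = 0.0321) and PKNOX1 (−0.58, adjusted p = 0.0181) fell, by the same edgeR test. These 3 calls ended without shCON replicate 1 and without shCON replicate 2, which left PBX3 as the called cofactor in both fits, and that of MEIS2 also ended in all 3 FPKM fits (adjusted p = 0.249 to 0.299).

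The complexes that silence HOX clusters held genes called in both directions, at counts to be read against the 23.9% of all genes called (12.3% rose, 11.6% fell). Of 11 genes of Polycomb repressive complex 2, which methylates lysine 27 of histone H3, 2 rose and 2 fell (median 0.09). The accessory factor PHF19 had 16.8 and 23.1 FPKM in shMAGED2 against 6.87 and 6.41 in shCON, and the methyltransferase EZH2 had 35.3 and 32.0 in shMAGED2 against 18.8 and 19.2 in shCON. PHF19 rose by 1.62 (SE 0.13) and EZH2 by 0.84 (SE 0.11), while the alternative methyltransferase EZH1 fell by 0.67 (SE 0.12) and the accessory factor PHF1 fell by 0.68 (SE 0.13), with adjusted p of 0.0012 to 0.0179 by edgeR with Benjamini-Hochberg adjustment. Without shCON replicate 1 only PHF19 passed, and without shCON replicate 2 PHF19 and EZH2 passed, and the EZH1 call ended in all 3 FPKM fits (adjusted p = 0.108 to 0.158). Of 18 genes of Polycomb repressive complex 1, 2 rose and 1 fell (median −0.03). Without shCON replicate 1, 0 rose and 1 fell, and the counts were the same without shCON replicate 2. CBX6 (0.51) and PCGF3 (0.38) rose, with calls near the threshold that ended under both of those fits, with library size alone as the scaling (adjusted p = 0.0923 and 0.0785) and in all 3 FPKM fits.

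Of 12 genes of the MLL complexes and of lysine 79 methylation, which sustain HOX expression, 2 rose and 0 fell (median 0.29), beside 12.3% of all genes that rose and 11.6% that fell. HCFC1, a shared subunit, had 8012 and 6681 counts in shMAGED2 against 4167 and 3387 in shCON, and DOT1L, the lysine 79 methyltransferase, had 17.6 and 14.8 FPKM in shMAGED2 against 10.9 in both shCON libraries. They rose by 0.95 (SE 0.19) and 0.61 (SE 0.13), and none of the 12 passed without shCON replicate 1 or without shCON replicate 2. The DOT1L call also ended in all 3 FPKM fits (adjusted p = 0.0536 to 0.0837). KMT2A, the founding member, did not pass (0.19, interval −0.09 to 0.48). The lysine 27 demethylases KDM6A and KDM6B did not pass either, at −0.35 and −0.53. Geminin (GMNN), which restrains DNA replication and binds HOX proteins, rose by 1.35 (SE 0.17; edgeR, Benjamini-Hochberg adjusted p = 0.00492), while CDX1, CDX2 and CDX4, activators of HOX genes in the trunk, had 0 counts throughout.

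**Figure D5:**
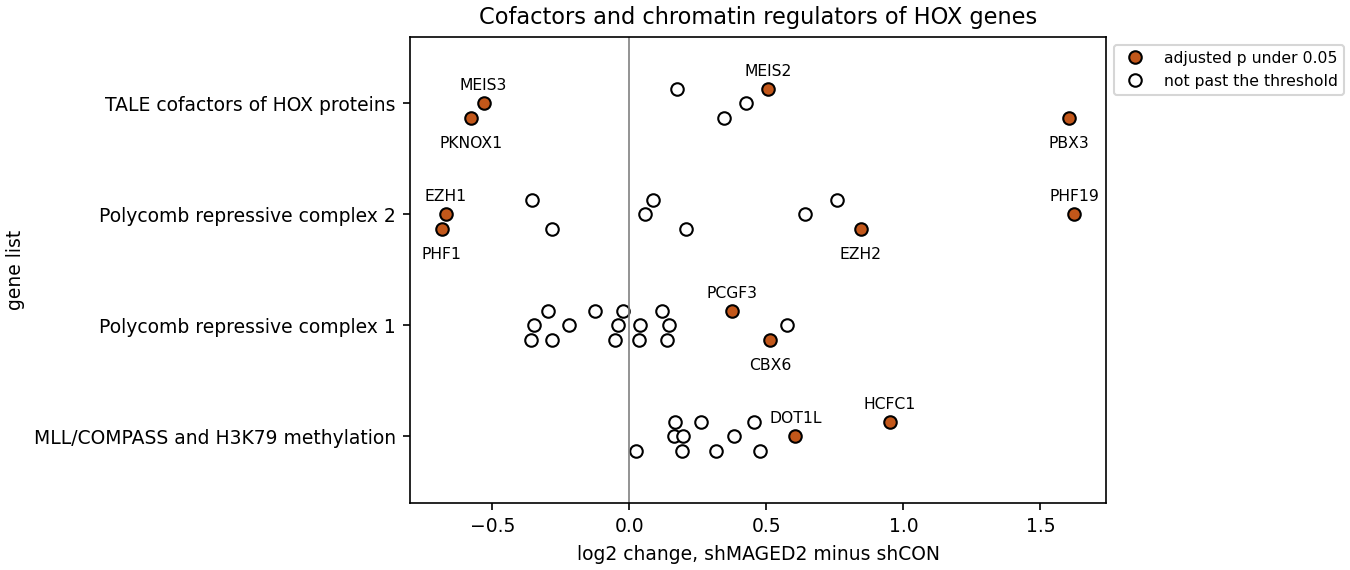
Log2 change, shMAGED2 minus shCON, of tested members of 4 gene lists, each point a gene, with vertical offsets for legibility only. Filled points passed an adjusted p of 0.05 and are named. PBX3 and PHF19 lie farthest to the right.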

How the data were processed

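Whole-number counts per gene and FPKM values were deposited by the authors for 4 libraries of U87-MG cells, 2 shMAGED2 and 2 shCON, grouped by sample title and matched to columns by sample description. The authors' counts and FPKM come from hg38 and the tools HISAT2, StringTie and SAMtools, per the submitters' processing notes. For the annotation, the strand setting and reads shared between genes, no statement was found in the labels. The labels' protocols name a NEBNext Ultra kit for the libraries.

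The count test was that of edgeR 4.0.16 (R 4.3.3): filterByExpr by group, TMM scaling, a robust quasi-likelihood fit with group as its only term and 2 residual degrees of freedom, two-sided, with p-values adjusted by Benjamini-Hochberg over 15293 genes. Standard errors come from the F statistic, intervals (95%) from the same fit, and CPM use TMM-scaled totals of 28673774 to 36234336 counts per library before scaling. A limit from 0 counts is 3 counts and covers counting error only. Levels between genes are compared in FPKM. GENCODE 29 (hg38) gave the 1-based coordinates. Some genes are not reported here. The other members are named, and of each list at most 4 called genes, those with the smallest p. PBX2, KMT2A, KDM6A, KDM6B, PAX6, DLX1, SLC1A3, GFAP, PDGFRA, S100B, TNC, CD44, VWF, PECAM1 and list genes at or near 0 counts are named besides, chosen after their values were seen. The members and lists were chosen with earlier results of these data known. The HOX antisense and intergenic RNAs (19 symbols) and HOX microRNA hosts (6 symbols) matched no row and are not analysed here.

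Alternatives were other scalings, DESeq2 1.42.0, other filters on low counts, limma 3.58.1 on log2(FPKM + 1) and log2(FPKM + 0.1), leaving out each library, and the replicate number as a block. Fits were tested on simulated data.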

Additional observations from a re-analysis of the deposited data

How the results depend on the processing

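Among the changes of HOX members reported here and recomputed under the alternatives, 250 kept their direction and their side of the threshold, 11 lost the call, 6 gained one and 15 turned. HOXA5, HOXB2 and HOXB7 were below 0 in each, at −0.85 to −1.34, −0.49 to −0.96 and −0.93 to −1.87. The number of genes called was 2421 and 2333 in limma on log2(FPKM + 1) and log2(FPKM + 0.1), 1359 without a filter on low FPKM, and 1100 to 7447 with a library left out. HOX members called were 1 (HOXA5) in the FPKM fit with no filter and 0 to 8 with a library left out. Directions turned for HOXD4 (−0.001 with DESeq2 size factors, −0.061 with library size alone, 0 in DESeq2, −0.03, −0.048 and −0.03 in the 3 FPKM fits, −0.082 to 0.084 with a library left out) and HOXA11 (−0.008, −0.062 and −0.008 in the FPKM fits, −0.003 in the replicate block, −0.523 to 0.49 with a library left out). With a library left out, HOXC6 ranged from −0.003 to 0.333 and HOXD8 from −0.229 to 0.125. None of these turning genes was called with all libraries, and the cause was not tested.

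Same-numbered libraries of the 2 groups did not deviate together (correlation −0.03 over 15293 genes), so the numbers were not taken as pairs. With the replicate block 3336 genes and 3 HOX members were called. Low counts limit the members: 24 of 39 could be tested. For MAGED2 and called list members, added after seeing the data, 201 recomputed changes kept their call and 59 lost it. With the block, the CBX6 and PCGF3 calls ended (adjusted p = 0.0534 and 0.075). In the FPKM fit with no filter the calls of MEIS3, PKNOX1, PHF1, HCFC1 and LNPK ended too, beside those named above for all 3 FPKM fits.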

Other observations

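Genes that flank the HOX clusters included 1 that rose and 1 that fell. Of 14 with a row, 8 were tested. These 2 of 8 are near the 23.9% called among all genes, so the count is not a result about flanking genes. LNPK, beside HOXD, had 9.39 and 8.95 FPKM in shMAGED2 against 5.84 and 6.35 in shCON and rose by 0.58 on the log2 scale (SE 0.11). CALCOCO1, beside HOXC, had 15.1 and 15.6 FPKM in shMAGED2 against 23.7 and 23.5 in shCON and fell by 0.52 (SE 0.12; edgeR, Benjamini-Hochberg adjusted p = 0.0163 and 0.0328 for LNPK and CALCOCO1). Both calls ended without shCON replicate 1 and without shCON replicate 2. EVX1 and EVX2, the homeobox genes at the posterior ends of HOXA and HOXD, had 0 counts in all 4 libraries, as did PRAC1 and PRAC2, next to HOXB13.

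Some forebrain regulators were detected in the same libraries. Of 14 forebrain and midbrain patterning genes, 6 were tested, 1 rose, beside 12.3% of all genes, and 8 had 0 counts. The 1 call ended in all 3 limma fits to FPKM. PAX6 had 6.29 and 4.64 FPKM in shMAGED2 against 2.59 and 3.94 in shCON. Its counts differed less, with 509 and 520 in shMAGED2 against 475 and 405 in shCON (log2 change 0.20 in the count test). DLX1 had 7.83 and 8.27 FPKM in shMAGED2 against 7.49 and 5.94 in shCON. Neither PAX6 nor DLX1 (log2 change 0.21) passed the test, and theirs were the smallest changes of the 6. All 6 had positive values, with a median log2 change of 0.8. Of 10 dispersed homeobox genes related to HOX, 8 had 0 counts and none had more than 3 in a library.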
